A study of Mus musculus with 5 samples.

Results

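St5, Mcam, As3mt and Arl4d are 4 genes whose transcripts were lower in natural killer (NK) cells of MycKO mice. They were chosen for that, from the well-measured genes with the clearest falls outside the usual markers of NK cell maturation. They are 4 of 13004 genes measured. RNA was sequenced from NK cells, lymphocytes of innate immunity that kill virus-infected and tumour cells, sorted from the spleen of C57BL/6 mice aged 8 weeks as live cells negative for CD3 and positive for NK1.1 and DX5. The 2 MycKO samples (replicates 5 and 6; genotype Mycdelta/delta/Ncr1Cre) come from mice in which Cre recombinase made under the control of Ncr1, the gene of the NK receptor NKp46, deleted Myc. The 3 control samples (replicates 1, 2 and 3; genotype Mycf/f) carry loxP-flanked Myc and, as labelled, no Cre, so Cre and the loss of Myc cannot be told apart. Separate mice are not stated for the samples, so a p-value here weighs the genotypes only against sample-to-sample variation that could be technical.

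ST5, MCAM and AS3MT have different roles. ST5, also called DENND2B, carries a DENN domain, the module of exchange factors that switch on RAB GTPases in membrane traffic, and in human cells it acts on RAB13. MCAM, or CD146, is an adhesion molecule of the immunoglobulin superfamily best known from blood vessel walls, where it binds laminin; in the mouse its surface protein has also been described on mature NK cells. AS3MT transfers methyl groups from S-adenosylmethionine to arsenic. MYC itself is a transcription factor that pairs with MAX on E-box sequences.

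The genes lie on 4 chromosomes. On mm10, St5 (Entrez 76954) spans chromosome 7, 109523911 to 109703605, minus strand, and has 11 annotated transcripts. Mcam (Entrez 84004) spans chromosome 9, 44134469 to 44142727, plus strand, with 6 transcripts. As3mt (Entrez 57344) spans chromosome 19, 46707458 to 46741099, plus strand, with 7 transcripts, and Arl4d (Entrez 80981) spans chromosome 11, 101665541 to 101667832, plus strand, with 1 transcript. All are protein-coding. The lengths behind the deposited values were 4526 bases for St5, 2892 for Mcam, 1751 for As3mt and 1382 for Arl4d. For Arl4d that is the whole annotated exon length, and for St5 it is 4526 of 5738 annotated exon bases, and these data do not separate isoforms. Antisense genes overlap the start of St5 (Gm44864) and of Mcam (Gm10687), and without a stated use of strand their reads cannot be told apart from those of their partners.

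Since the 4 genes fell together, their promoters are shown, from RefSeq on GRCm38.p6: 250 bases before to 50 after the start, on the gene's strand. They are chr7:109616519-109616818 (minus strand) for St5, whose RefSeq start lies within the span given above, chr9:44134408-44134707 (plus strand) for Mcam, chr19:46707208-46707507 (plus strand) for As3mt and chr11:101665291-101665590 (plus strand) for Arl4d. Capitals mark every match to 5 motifs searched on both strands: CACGTG (E-box), AGGTGT (core of the T-box), TGTGGT (RUNX), CCGGAA (ETS) and GGGCGG (SP and KLF).
St5: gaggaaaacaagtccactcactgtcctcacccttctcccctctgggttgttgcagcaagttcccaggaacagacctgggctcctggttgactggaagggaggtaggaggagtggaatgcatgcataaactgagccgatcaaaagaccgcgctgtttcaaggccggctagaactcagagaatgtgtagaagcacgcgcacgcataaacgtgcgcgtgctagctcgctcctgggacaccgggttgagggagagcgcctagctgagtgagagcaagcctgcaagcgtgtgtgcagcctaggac
Mcam: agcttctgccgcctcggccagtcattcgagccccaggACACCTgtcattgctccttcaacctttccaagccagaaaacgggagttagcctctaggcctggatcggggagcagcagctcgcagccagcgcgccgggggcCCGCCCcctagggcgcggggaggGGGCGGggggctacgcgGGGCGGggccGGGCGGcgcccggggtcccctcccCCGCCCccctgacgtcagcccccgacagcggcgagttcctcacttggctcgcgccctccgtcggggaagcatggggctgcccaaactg
As3mt: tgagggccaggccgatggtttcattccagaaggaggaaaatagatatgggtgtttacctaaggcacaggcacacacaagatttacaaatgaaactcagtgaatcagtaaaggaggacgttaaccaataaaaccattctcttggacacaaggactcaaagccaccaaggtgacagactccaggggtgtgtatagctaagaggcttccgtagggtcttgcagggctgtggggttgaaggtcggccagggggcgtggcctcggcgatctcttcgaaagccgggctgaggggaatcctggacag
Arl4d: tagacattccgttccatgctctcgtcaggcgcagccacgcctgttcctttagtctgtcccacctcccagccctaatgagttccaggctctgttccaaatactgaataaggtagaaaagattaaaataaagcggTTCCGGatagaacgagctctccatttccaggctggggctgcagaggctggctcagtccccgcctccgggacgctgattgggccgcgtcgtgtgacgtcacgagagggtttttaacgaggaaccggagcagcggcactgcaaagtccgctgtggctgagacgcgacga

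None of the 4 promoters held the E-box CACGTG, which stood in 9.78% of 13135 promoters of measured genes. The T-box core was found in Mcam alone, 213 bases before the start (11.2% of all promoters), and the ETS motif in Arl4d alone, 117 bases before the start (26.6%). GGGCGG or its reverse complement occurred 5 times in Mcam and in none of the other 3 windows, against 60.2% of all promoters, and no window held the RUNX motif (13.6%). The Mcam window was the richest in G and C, at 72.7% with 29 CpG, while St5 had 57.0%, As3mt 52.0% and Arl4d 56.3%. The median of all promoters was 60.3%, with 20 CpG. The matches describe letters in these windows and not bound sites. At a share of 9.78%, the absence of the E-box from 4 windows is no finding about these genes. Only these windows were searched, so the annotated start of St5 at 109703605 was not.

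The genotype check was on Myc, at 12.5 and 8.70 RPKM (reads divided by transcript length in kilobases and by library size) in MycKO 5 and 6, against 13.0, 23.0 and 21.2 RPKM in controls 1, 2 and 3. Both MycKO libraries were below all controls, and the difference of -0.77 did not pass limma (adjusted p = 0.297). The labels do not say which exons were deleted, and the deposited value does not separate exons. Ncr1, whose promoter drives Cre, was at 633 and 744 RPKM in MycKO 5 and 6, against 1619, 931 and 1243 RPKM in controls 1, 2 and 3 (-0.84, adjusted p = 0.143). Reads in listed genes numbered 5451728 to 13337084 in MycKO and 14290690 to 17610826 in controls, MycKO 5 being the shallowest. Differences throughout are MycKO minus control in units of log2(RPKM + 1). All 15 NK cell markers were measured, with a sum of 13249.5 and 15274 RPKM in MycKO and of 15982 to 18484 RPKM in controls. Markers of other blood cells were higher in MycKO. The 14 myeloid markers summed to 1596 to 2269 RPKM in MycKO and 448 to 676 RPKM in controls, the 8 T cell markers to 121 to 178 and 14.7 to 33.0, and the 7 B and plasma cell markers to 344 to 679 and 89.6 to 139.8. The 7 basophil and mast cell markers summed to 11.4 to 77.3 RPKM in MycKO and 5.60 to 6.15 RPKM in controls, and the 8 red cell and platelet markers to 221 to 397 and 85.3 to 139.7. The basophil gene Mcpt8 was at 0 in every control. The most abundant were Lyz2 (myeloid), Cd3g (T cell), Jchain (plasma cell), Mcpt8 (basophil) and Car2 (red cell). The groups overlapped for Lyz2, at 734 and 210 RPKM in MycKO 5 and 6, against 102, 220 and 55.1 RPKM in controls 1, 2 and 3. They also overlapped for Car2, at 182 and 126 RPKM against 90.1, 129 and 79.7 RPKM. Cd3g, Jchain and Mcpt8 were higher in both MycKO libraries than in all controls. In bulk RNA, fewer NK cells in a library and less RNA per NK cell cannot be told apart, and the part of these other cells in the falls of the 4 genes was not tested.

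St5 had the largest fall of the 4. It was at 7.69 and 12.2 RPKM in MycKO 5 and 6, against 32.7, 27.9 and 39.4 RPKM in controls 1, 2 and 3. The groups did not overlap, and the lowest control was 2.29 times the higher MycKO library. The mean was 9.93 ± 3.16 RPKM in MycKO (SD, n = 2) and 33.3 ± 5.80 RPKM in controls (SD, n = 3), so MycKO held 29.8% of the control level, a difference of -1.67. The MycKO 5 value rests on 190 reads, with an exact Poisson interval of 6.64 to 8.87 RPKM, and the other libraries had 735 to 2551 reads. The interval of MycKO 5 lies below that of MycKO 6, at 11.3 to 13.1 RPKM, so counting error alone does not span the gap between the 2 MycKO libraries.

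Mcam followed closely. It was at 14.6 and 24.3 RPKM in MycKO 5 and 6, against 62.3, 45.2 and 55.3 RPKM in controls 1, 2 and 3. Again MycKO 5 was the lowest library and all controls were above both MycKO libraries, the lowest control by 1.86 times. The mean was 19.5 ± 6.83 RPKM in MycKO (SD, n = 2) and 54.3 ± 8.62 RPKM in controls (SD, n = 3), or 35.9% of the control level and a difference of -1.46. Without MycKO 5 the difference was -1.12, and without MycKO 6 it was -1.81. Vessel walls express Mcam, so endothelial and stromal markers were examined. Of 11 endothelial markers, 6 were measured, and Cdh5, Esam, Flt1 and Plvap were each below 1 RPKM in every library, with Plvap in MycKO 5 the nearest to it. Vwf was at 0.353 and 1.09 RPKM in MycKO 5 and 6, against 0.143, 0.533 and 0.00792 RPKM in controls 1, 2 and 3. The 6 markers summed to 41.0 and 57.6 RPKM in MycKO and 24.7 to 30.0 RPKM in controls, most of it Pecam1, and their part in the Mcam values was not tested. Pecam1, which leukocytes also express, was at 38.0 and 54.9 RPKM in MycKO 5 and 6, against 28.3, 22.8 and 28.3 RPKM in controls 1, 2 and 3 (limma adjusted p = 0.123). The 6 measured stromal and smooth muscle markers summed to 2.49 to 8.14 RPKM in MycKO and 4.35 to 9.21 RPKM in controls, with Tagln the most abundant.

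As3mt and Arl4d stood higher in level and fell less, with little spread. As3mt was at 52.1 and 54.3 RPKM in MycKO 5 and 6, against 103, 84.8 and 99.3 RPKM in controls 1, 2 and 3. Its mean was 53.2 ± 1.57 RPKM in MycKO (SD, n = 2) and 95.8 ± 9.67 RPKM in controls (SD, n = 3), which is 55.6% of the control level and a difference of -0.83. Arl4d, the most abundant of the 4, was at 131 and 141 RPKM in MycKO 5 and 6, against 246, 212 and 225 RPKM in controls 1, 2 and 3. Its mean was 136 ± 7.12 RPKM in MycKO (SD, n = 2) and 227 ± 17.2 RPKM in controls (SD, n = 3), which is 59.97% of the control level and a difference of -0.73. For both genes the lowest control was above the higher MycKO library, by 1.56 times for As3mt and 1.496 times for Arl4d. Each value of As3mt rested on 498 to 2719 reads and each of Arl4d on 990 to 5149. In MycKO 5 and 6 the counting intervals overlapped for As3mt, at 47.6 to 56.9 and 51.4 to 57.4 RPKM, and for Arl4d, at 123 to 139.7 and 136 to 147 RPKM.

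**Figure D1:**
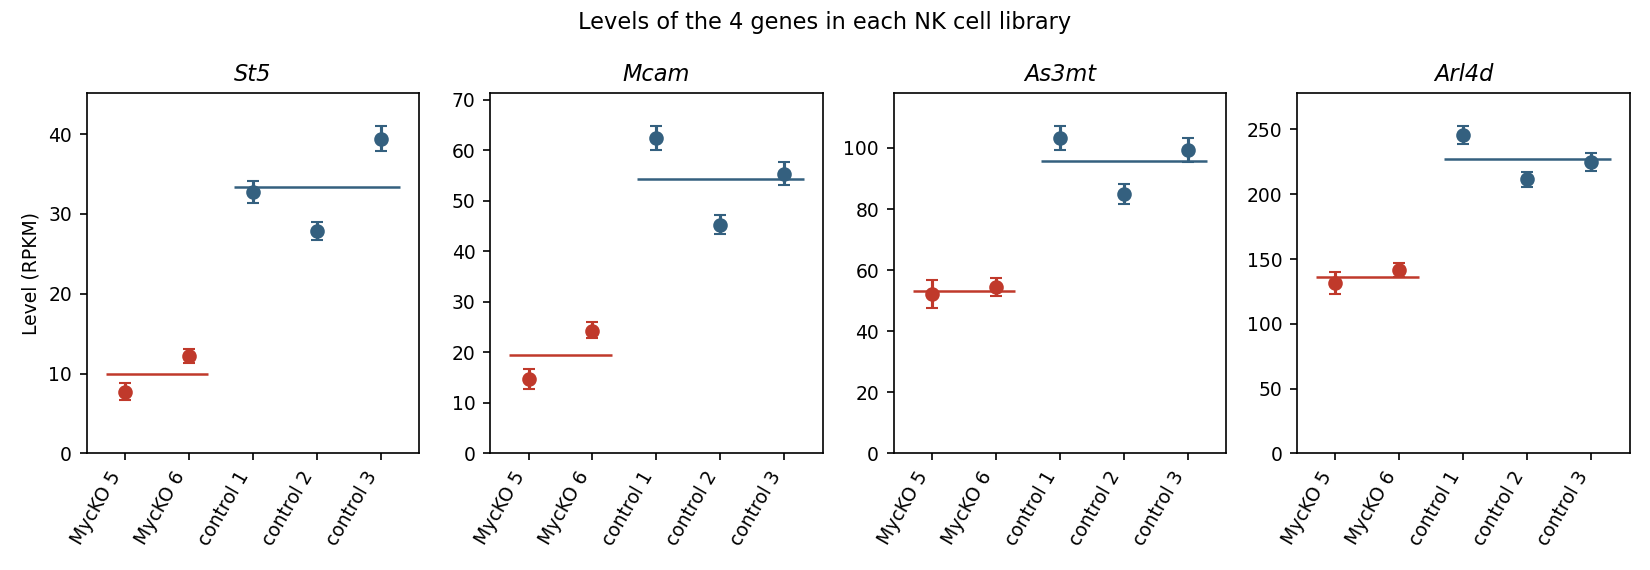
Level of each gene in RPKM (vertical axis, from 0, scaled per panel) in MycKO 5 and 6 (red) and controls 1 to 3 (blue). Points are libraries, bars are exact 95% Poisson intervals of the reads and lines are group means; in each panel both MycKO libraries lie below all 3 controls, and MycKO 5 is well below MycKO 6 for St5 and Mcam.

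The rule rests on this contrast, so these differences are a description and carry no test. Across the 11190 genes tested, 0.0983% passed limma as lower and 1.24% as higher, and 10.4% had both MycKO libraries below all controls. Among 7197 genes with a mean of at least 3 on the log2 scale, St5 had rank 3 by size of fall, Mcam rank 6, As3mt rank 29 and Arl4d rank 44. Between Mcam and As3mt lay genes that the choice left out, such as the maturation markers Klrg1 (-1.35), Cma1 (-1.11) and S1pr5 (-0.86). Other genes, picked with their values in view, lay there too, among them Hs3st3b1 (-1.09), Them6 (-1.08), Enc1 (-1.04) and Borcs7 (-0.93). Mir6924 (-2.02) fell more than St5, and Cym (-1.50) more than Mcam. Among genes without overlap, As3mt had rank 24 and Arl4d rank 36. Next after Arl4d in size among genes without overlap was Tmem42 (-0.72), and Itgam (-0.69), which encodes CD11b, lay close behind. The authors' deposited table gives log2 ratios of -1.79 for St5, -1.53 for Mcam, -0.91 for As3mt and -0.80 for Arl4d. When the libraries were scaled to the sum of the NK cell markers, in which the granzyme gene Gzma weighs most, the differences were -1.41 for St5, -1.20 for Mcam, -0.56 for As3mt and -0.46 for Arl4d. That scaling divides each library by a single factor and so moves all genes nearly alike. It moved the median of all genes to 0.30, against 0.05 on RPKM as deposited. The falls relative to the median were therefore bound to be about as large on either scale, which is no check of them.

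**Figure D2:**
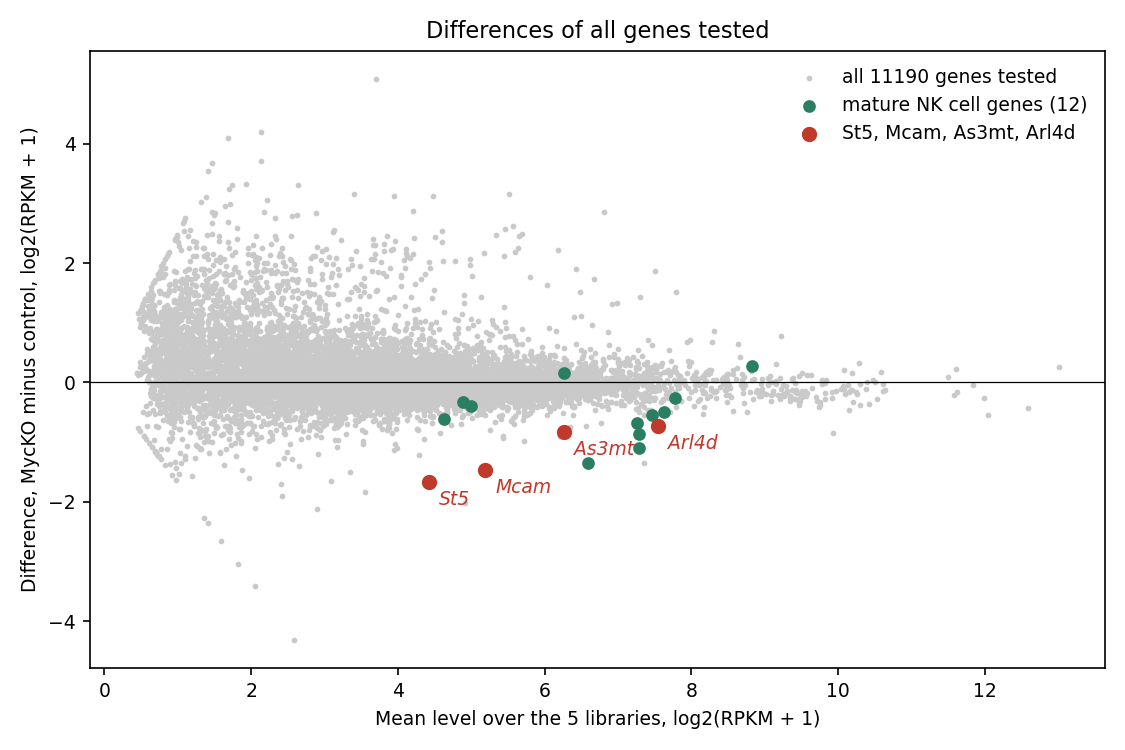
Difference between MycKO and control (vertical axis, log2(RPKM + 1)) against the mean level over 5 libraries (horizontal axis, same scale). Shown are 11190 genes (grey), the 12 genes of the mature NK cell list, which includes Cd27 (green), and the 4 genes (red). St5 at -1.67 and Mcam at -1.46 lie at the lower edge of genes of their level, and As3mt at -0.83 and Arl4d at -0.73 lie lower than most genes of theirs.

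Within the groups the 4 genes shared the lowest control and the lower MycKO library. The highest control was control 3 for St5 and control 1 for Mcam, As3mt and Arl4d. Control 2 was the lowest control for all 4, at 77.3% of the mean of controls 1 and 3 for St5, 76.8% for Mcam, 83.8% for As3mt and 89.9% for Arl4d. Control 2 was lowest for 37.0% of the other 7193 well-measured genes. MycKO 5 was below MycKO 6 for all 4, at 63.2% for St5, 60.2% for Mcam, 95.9% for As3mt and 92.9% for Arl4d, and for 50.8% of the other genes. Both patterns held together in 21.6% of the other genes, so the shared lowest libraries are a description of these 5 libraries. The ratio of As3mt to Arl4d in RPKM moved little, at 0.397 and 0.384 in MycKO and 0.420, 0.401 and 0.442 in controls. The ratio of St5 to Mcam was 0.526 and 0.501 in MycKO and 0.525, 0.617 and 0.713 in controls, with control 1 at the level of MycKO. The 4 genes thus form 2 pairs by the size of their fall: the ratio of Mcam to Arl4d was 0.112 and 0.172 in MycKO and 0.254, 0.214 and 0.246 in controls.

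Likeness was measured as the root mean square difference between profiles of log2(RPKM + 1) over the 5 libraries, each centred on its own mean, so that a small value means a similar size of fall and a similar order of libraries. As3mt and Arl4d were 0.067 apart, closer than either was to any of the 6255 genes that average at least 10 RPKM. The nearest of these to As3mt were 5430416N02Rik (0.089), the inhibitory IgG receptor gene Fcgr2b (0.10) and the kinase gene Stk32c (0.11). The nearest to Arl4d were Dgcr8 (0.080), whose product takes part in microRNA processing, 5430416N02Rik (0.081) and Itgam (0.081). St5 and Mcam were 0.17 apart. The same 3 genes were nearest to both: the protease gene Cym, at 0.26 from St5 and 0.21 from Mcam, the heparan sulfate enzyme gene Hs3st3b1, at 0.31 and 0.22, and the protease gene Cma1, at 0.34 and 0.24. Cym, at 2.97 and 6.50 RPKM in MycKO and 18.6, 9.15 and 17.5 RPKM in controls, is the lowest of these 3 in level. Like Cym, 5430416N02Rik (7.03 and 6.82 RPKM) and Dgcr8 (7.42 and 8.55 RPKM) were below 10 RPKM in both MycKO libraries. These genes reached an average of 10 RPKM only through the controls. Fcgr2b, at 25.4 and 27.5 RPKM in MycKO and 57.5, 38.4 and 46.5 RPKM in controls, is also expressed by B cells and myeloid cells, whose markers were higher in the same MycKO libraries. All these nearest genes were picked by their pattern, which the group difference dominates, and get no test. St5, Mcam, As3mt and Arl4d were themselves chosen for falls in this contrast. The distances among them follow in part from that choice and get no test either. With 1 library left out, 1 to 2 of the 3 nearest genes were the same for St5 and for Mcam, and 0 to 2 for As3mt and for Arl4d.

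**Figure D3:**
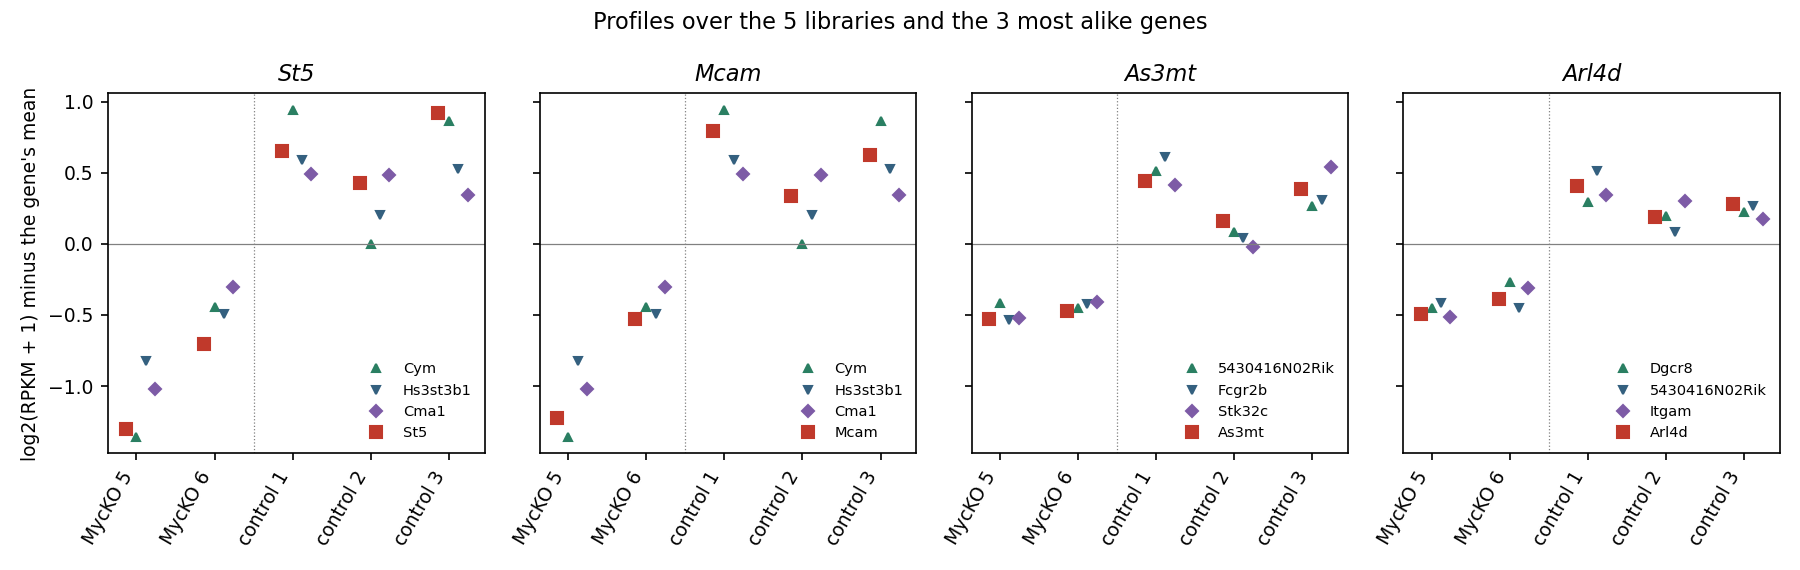
log2(RPKM + 1) minus the gene's own mean over the 5 libraries (vertical axis) for each of the 4 genes (red squares) and the 3 genes with the most alike profile, in MycKO 5 and 6 (left of the dotted line) and controls 1 to 3. St5 and Mcam spread over more than As3mt and Arl4d, and control 2 is the lowest control for each of the 4 genes.

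The position of the 4 genes was not used to choose them, so their chromosomal neighbours could be tested. Within 200 kb lay 29 measured genes, of which 28 were tested. None passed limma over all genes (background 1.34% in either direction), 6 reached an unadjusted p under 0.05 (13.2% of all genes tested), none were called by limma-voom (2.09% of all genes) and 2 were called in the authors' deposited table (3.4% of all genes). Here and in the lists below, the 3.4% is over all 13004 genes of that table, while the calls counted are among genes tested. Of the 11190 genes tested, the authors' deposited table called 411. Of the 28, 14 were higher and 14 lower, with a median of 0.02.

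Around As3mt, 6 of 8 neighbours were lower. The nearest, Borcs7, lies 4076 bases before As3mt on the same strand and encodes a subunit of the BORC complex, which positions lysosomes. It was at 22.4 and 35.8 RPKM in MycKO 5 and 6, against 56.0, 55.4 and 53.7 RPKM in controls 1, 2 and 3. The groups did not overlap and the controls were within a few RPKM of each other. Its difference of -0.93 was similar in size to that of As3mt and did not pass limma (SE 0.19, adjusted p = 0.0743). It passed without MycKO 6, at -1.26 with a limma adjusted p of 0.0377, and in the authors' deposited test (adjusted p = 0.000471), and was between 0.0629 and 0.328 under the other 11 alternatives. Also lower on that side were the steroid enzyme gene Cyp17a1 (-1.20, adjusted p = 0.379), at 1.79 and 6.47 RPKM in MycKO and 14.1, 5.21 and 11.4 RPKM in controls, and Sfxn2 (-0.77, adjusted p = 0.31), at 3.99 and 2.99 RPKM in MycKO and 6.20, 5.43 and 8.56 RPKM in controls; this pair was picked with its values in view. On the far side of As3mt, Cnnm2 was at -0.09 (limma adjusted p = 0.966).

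The nearest neighbours of the other 3 genes did not pass. Akip1 begins 85 bases from the annotated start of St5 and runs the other way, and it was at 0.60 (limma adjusted p = 0.465), opposite in sign to St5. On the other side of St5, the ribosomal protein gene Rpl27a was at -0.23 (adjusted p = 0.413). Cbl, a ubiquitin ligase gene that ends 249 bases from Mcam on the opposite strand, was at -0.33 (adjusted p = 0.535) with values of 25.3 and 30.0 RPKM in MycKO and 32.3, 30.4 and 43.2 RPKM in controls. Rnf26, on the other side of Mcam, was at -0.11 (adjusted p = 0.956). Farther from Mcam, the transporter gene Abcg4 was at 1.57 and 1.72 RPKM in MycKO and 0 in all 3 controls (adjusted p = 0.16). It was picked with its values in view, and it reached the filter only through the MycKO libraries, which fixed its direction. The only neighbour of Arl4d with an unadjusted p under 0.05, Tmem106a, was higher, at 0.93 (adjusted p = 0.235), and was picked with its values in view. Beside Arl4d, Rdm1 was at -0.28 (adjusted p = 0.839) and Dhx8 at -0.24 (adjusted p = 0.673).

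**Figure D4:**
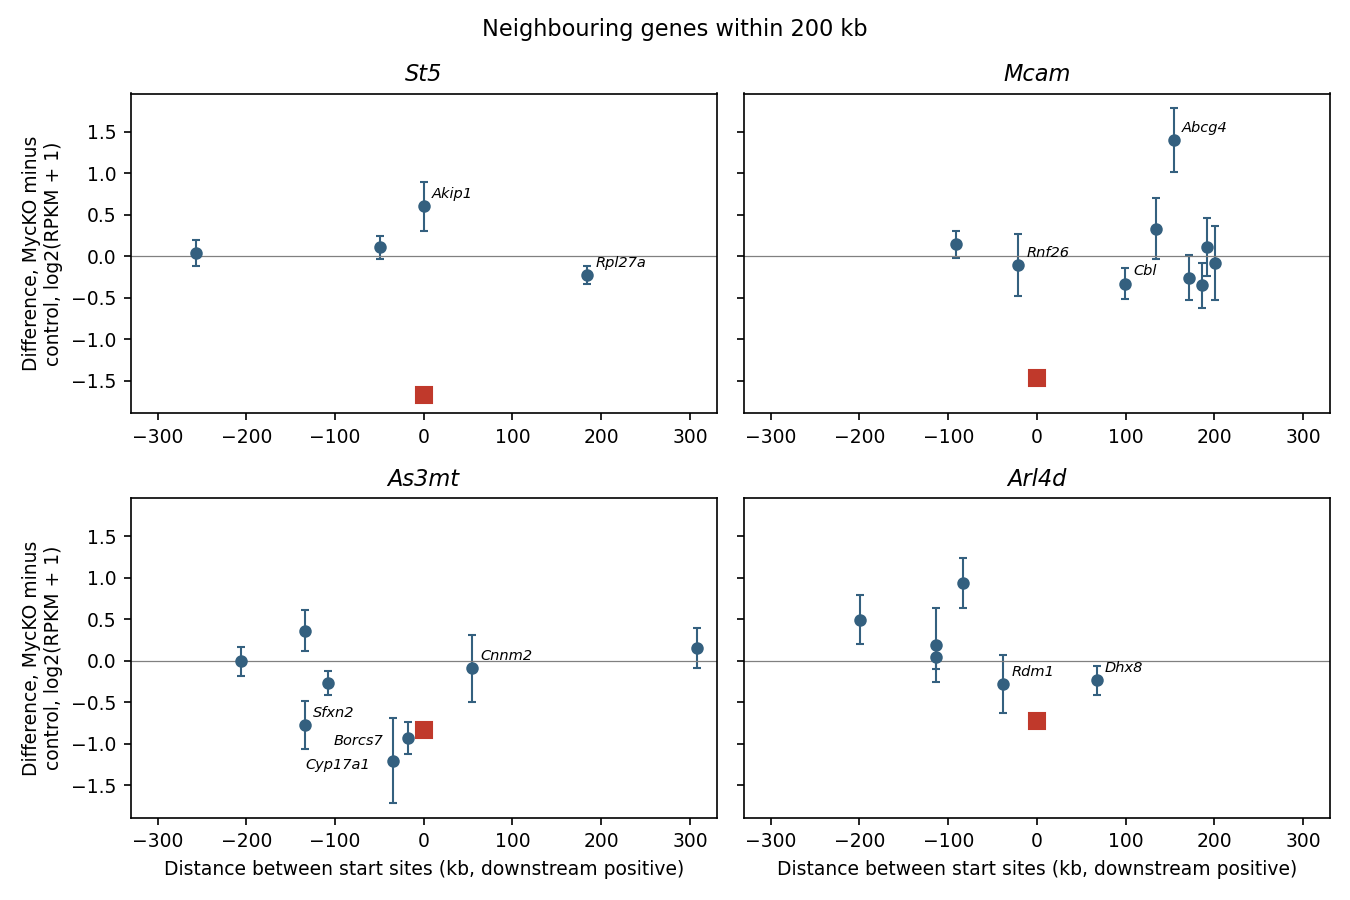
Difference between MycKO and control (vertical axis, log2(RPKM + 1), bars are limma standard errors) of genes within 200 kb against the distance between start sites in kb (horizontal axis, downstream of the gene positive), with the gene itself as a red square at 0; 1 neighbour of Mcam is not shown. Borcs7 at -0.93 lies beside As3mt at -0.83, while the nearest neighbours of St5, Mcam and Arl4d lie between -0.33 and 0.60.

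Relatives and partners of the 4 proteins were then examined in 8 lists that leave out the 4 genes. Of 151 listed genes, 134 were measured and 121 tested. No relative fell at the threshold and 5 rose, against 0.0983% lower and 1.24% higher over all genes, and the median was 0.05, the same as over all genes. An unadjusted p under 0.05 was reached by 21 of the 121 (13.2% of all genes). Calls numbered 7 by limma-voom (2.09% of all genes) and 11 in the authors' deposited table (3.4% of all genes). All 5 that rose are genes that myeloid cells express, and Vcam1 and S100a8 are also among the myeloid markers. Those markers summed to 1596 to 2269 RPKM in MycKO and 448 to 676 RPKM in controls. The part of myeloid cells in the 5 rises was not tested. Aqp9, 1 of the 5, reached the expression filter only through the MycKO libraries, so its direction was fixed by the filter.

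Around St5, none of 20 DENN domain genes tested passed limma, against 1.34% of all genes in either direction. Of the 20, 12 were higher and 8 lower, with a median of 0.02, and 2 reached an unadjusted p under 0.05 (13.2% of all genes). Limma-voom called 0 (2.09% of all genes), as did the authors' deposited table (3.4% of all genes). A count of 0 in a list this short is near these shares. Fnip1, a partner of folliculin in nutrient sensing, was at 0.50 (limma adjusted p = 0.315). The mouse counterpart of C9ORF72, 3110043O21Rik, was at 1.16 (adjusted p = 0.328), with 2.58 and 7.83 RPKM in MycKO and 2.10, 1.47 and 1.07 RPKM in controls. Sbf1, a pseudophosphatase gene, was at -0.20 (adjusted p = 0.534). In the list of RAB13 relatives and the ERK branch, none of 10 tested passed, and the median was 0.04. Beside the same shares of all genes, 0 reached an unadjusted p under 0.05 and 0 were called by limma-voom or in the authors' deposited table. Rab8b was at 0.25 (adjusted p = 0.39), the adaptor gene Grb2 at 0.11 (adjusted p = 0.799) and Mical1, which acts on actin, at -0.15 (adjusted p = 0.811). Rab13 itself is not analysed here.

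Around Mcam, none of 10 ligands and partners tested fell and 2 rose (1.24% of all genes), with a median of 0.02. An unadjusted p under 0.05 was reached by 3 (13.2% of all genes). Both limma-voom (2.09% of all genes) and the authors' deposited table (3.4% of all genes) called 3. Lgals3, which encodes galectin-3, a sugar-binding protein known as an MCAM ligand in human cells, was at 44.7 and 29.2 RPKM in MycKO 5 and 6, against 11.9, 10.6 and 10.2 RPKM in controls 1, 2 and 3. Its difference was 1.65 with a limma adjusted p of 0.0214, and it lost the call without MycKO 5 (1.35, adjusted p = 0.113), control 1 (1.71, 0.066) or control 3 (1.61, 0.0794). S100a8, one subunit gene of the neutrophil protein calprotectin, was at 269 and 107 RPKM in MycKO 5 and 6, against 34.4, 19.4 and 8.57 RPKM in controls 1, 2 and 3 (3.16, adjusted p = 0.0484). The S100a8 call was lost in 9 of 13 alternatives, among them the omission of any 1 library, where its adjusted p was 0.0631 to 0.282. Its partner S100a9 was at 2.61 (adjusted p = 0.055).

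Of 11 immunoglobulin superfamily adhesion genes tested, 10 were higher and 1 lower, 1 passed as higher and 6 had an unadjusted p under 0.05, with a median of 0.53, opposite in sign to Mcam. Over all 11190 genes tested, 6390 were higher, 1.24% passed as higher and 13.2% had such an unadjusted p. In this list 3 were called by limma-voom (2.09% of all genes) and 4 in the authors' deposited table (3.4% of all genes). Vcam1, a ligand of the integrin VLA-4 that splenic red pulp macrophages express, was at 101 and 206 RPKM in MycKO 5 and 6, against 18.4, 24.7 and 34.1 RPKM in controls 1, 2 and 3 (2.49, limma adjusted p = 0.0241). Without MycKO 6 or control 1 it was at 1.98 or 2.28 and did not pass (adjusted p = 0.0631 and 0.0711). Cadm1 was at 4.11 and 4.99 RPKM in MycKO 5 and 6, against 0.471, 0.870 and 0.195 RPKM in controls 1, 2 and 3 (limma adjusted p = 0.0601). It reached the filter only through the MycKO libraries, which fixed its direction.

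Around As3mt, none of 9 genes of the methionine and methyl donor cycle tested passed (1.34% of all genes), and the median was 0.04. An unadjusted p under 0.05 was reached by 0 (13.2% of all genes), and 0 were called by limma-voom (2.09%) or in the authors' deposited table (3.4%). Ahcyl2 was at 0.36 (limma adjusted p = 0.716), Ahcy, whose product clears the S-adenosylhomocysteine left by methyl transfer, at 0.23 (adjusted p = 0.836), and the methionine synthase gene Mtr at -0.14 (adjusted p = 0.895). Of 18 genes of arsenic and thiol handling, 14 were higher and 4 lower, 2 rose and 5 had an unadjusted p under 0.05, with a median of 0.34; over all genes 6390 of 11190 were higher, 1.24% rose and 13.2% had such a p. Calls in this list numbered 1 by limma-voom (2.09% of all genes) and 3 in the authors' deposited table (3.4% of all genes). Aqp9, a channel gene for glycerol and arsenite, was at 7.06 and 3.63 RPKM in MycKO 5 and 6, against 0, 0 and 0.404 RPKM in controls 1, 2 and 3 (limma adjusted p = 0.0409). Only the MycKO libraries brought Aqp9 past the filter of 1 RPKM in 2 samples, which fixed its direction. Its call is therefore no support for a rise in this list. It lost the call in 5 of 10 alternatives, including each omission of a control (limma adjusted p = 0.0535 to 0.124). Without MycKO 5, without MycKO 6 or where at least 5 RPKM was required, it did not reach the filter and was not tested. The heme oxygenase gene Hmox1 was at 122 and 293 RPKM in MycKO 5 and 6, against 42.5, 50.6 and 57.2 RPKM in controls 1, 2 and 3 (1.91, adjusted p = 0.0449), and lost the call in 8 of 13 alternatives, among them the omission of MycKO 6 or of any control, with adjusted p-values of 0.0631 to 0.151. Gsto1, a glutathione transferase gene that reduces arsenic species, was at 24.3 and 27.6 RPKM in MycKO 5 and 6, against 16.1, 10.6 and 13.7 RPKM in controls 1, 2 and 3 (adjusted p = 0.0966).

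Around Arl4d, none of 25 ARF, ARL and SAR GTPase genes tested passed (1.34% of all genes), and the median was 0.05. An unadjusted p under 0.05 was reached by 2 (13.2% of all genes), and 0 were called by limma-voom (2.09%) or in the authors' deposited table (3.4%). These 2, Arl4c and Arl8a, were lower, and so few are no result about the list. Its paralogue Arl4c was at 112 and 118 RPKM in MycKO 5 and 6, against 158, 151 and 142 RPKM in controls 1, 2 and 3, without overlap (-0.38, limma adjusted p = 0.156). The other paralogue in the list, Arl4a, picked with its values in view, was at 6.35 and 10.2 RPKM in MycKO 5 and 6, against 7.21, 9.54 and 7.70 RPKM in controls 1, 2 and 3, with overlap (-0.0048, adjusted p = 0.999). Arl8a, which moves lysosomes together with BORC, was at 27.7 and 24.9 RPKM in MycKO 5 and 6, against 37.6, 34.2 and 33.2 RPKM in controls 1, 2 and 3, also without overlap (-0.40, adjusted p = 0.255). Arl11 was at 0.89 (adjusted p = 0.579). Of 18 exchange factors, GAPs and partners of ARF6 and ARL4, none passed limma (1.34% of all genes), and the median was -0.03. An unadjusted p under 0.05 was reached by 3 (13.2% of all genes). Calls numbered 0 by limma-voom (2.09%) and 1 in the authors' deposited table (3.4%). The cytohesin gene Cyth2, an exchange factor gene for ARF6, was at 14.6 and 17.2 RPKM in MycKO 5 and 6, against 20.6, 25.9 and 21.2 RPKM in controls 1, 2 and 3 (-0.48, adjusted p = 0.296), whereas Cyth3 was at 0.91 (adjusted p = 0.374). The cortactin gene Cttn was at 1.65 and 1.65 RPKM in MycKO and 0, 0 and 0.0651 RPKM in controls (limma adjusted p = 0.166). It too reached the filter only through the MycKO libraries, which fixed its direction.

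For comparison, of 12 genes on the mature NK cell list 4 fell (Klrg1, Itgam, S1pr5 and Cma1), none rose and 10 were lower. The median was -0.52, beside a median of 0.05 over all genes, of which 0.0983% passed as lower. This pattern was known from these data when the list was drawn up. The list also holds Cd27 (0.16), a marker of less mature NK cells and 1 of its 2 higher genes. St5 and Mcam, at -1.67 and -1.46, lay below all 12, of which Klrg1 was the lowest at -1.35, and As3mt and Arl4d lay between S1pr5 (-0.86) and Itgam (-0.69). The count of 4 was 0 with a pseudocount of 0.1, 0 without MycKO 5, control 1 or control 3, 2 when scaled to the NK cell markers, 5 in limma-voom and 6 in the authors' deposited table. Of 13 alternatives, Itgam lost its call in 7, Cma1 in 6, S1pr5 in 5 and Klrg1 in 4. The difference between the 4 genes and this list was not tested.

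**Figure D5:**
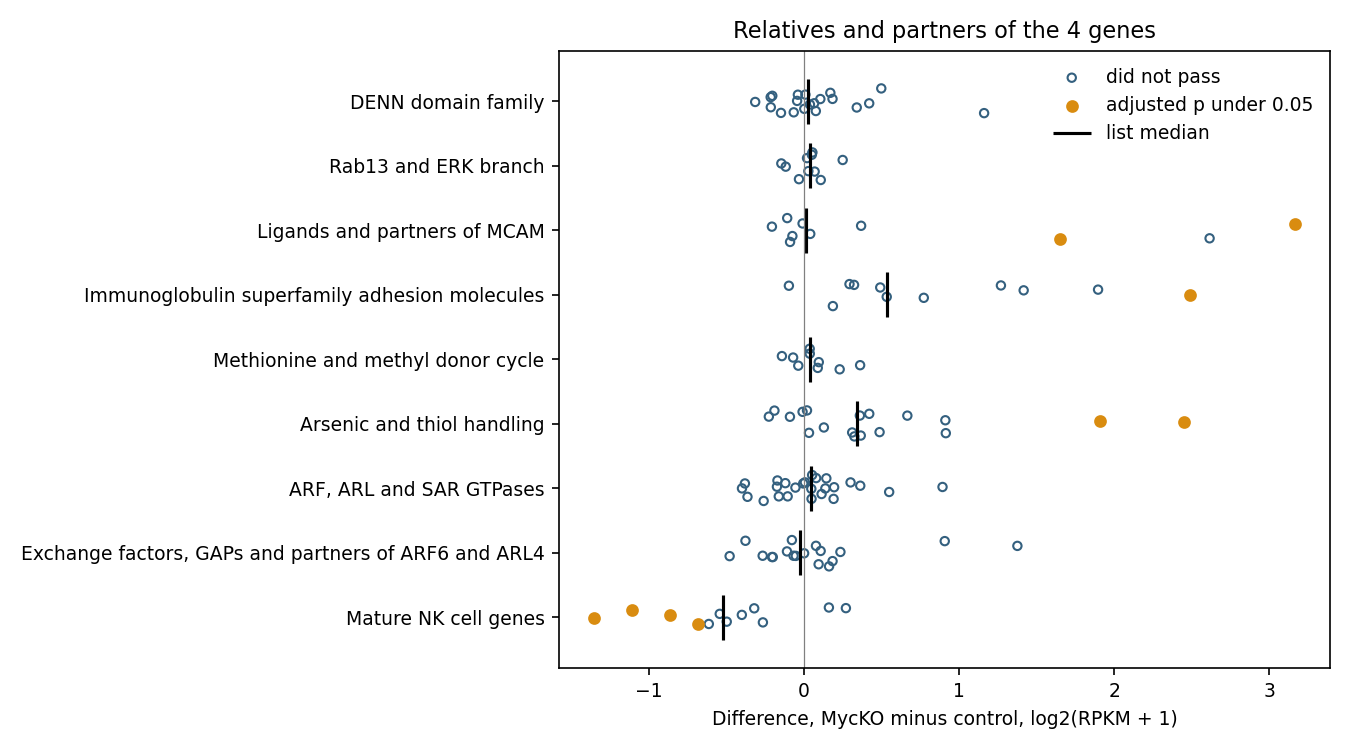
Difference between MycKO and control (horizontal axis, log2(RPKM + 1)) of each tested gene in 8 lists of relatives and partners and in the mature NK cell list (rows; points are shifted vertically at random for visibility). Filled points passed limma, and all 5 filled points among the relatives are higher in MycKO; black lines are list medians, which run from -0.03 to 0.53 in the 8 lists and are at -0.52 in the mature list.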

How the data were processed

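RNA of sorted NK cells from 2 MycKO and 3 control samples was measured as single reads of stranded libraries. Per the submitters' processing notes, TopHat and edgeR were used, with no role given, on the mm10 build. Neither the gene annotation, nor the counting program, nor whether strand was used is given in the sources used here. The deposited table gives RPKM for each sample, the authors' mean normalized signal per group, the authors' fold change as a ratio and as a log2 value, and the authors' own p-value, raw and adjusted; the header names no program for it.

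Since the table held no counts, log2(RPKM + 1) was analysed. A gene was tested where 2 or more samples reached 1 RPKM (11190 of 13004 genes), and limma 3.58.1 (R 4.3.3) was fitted to the 2 groups over all 5 samples with a variance trend. Tests were two-sided with Benjamini-Hochberg adjustment over all genes tested, at a threshold of 0.05. Differences are MycKO minus control on that scale, which understates changes of genes at low level. St5, Mcam, As3mt and Arl4d were themselves picked from this contrast and got no test.

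The authors' group means are weighted sums of the samples' RPKM, which gave back the reads and gene lengths: 100% of values were whole within 0.0001 of a read. No 2 samples agreed within counting noise (chi-square per degree of freedom of at least 17.3). The precision of a value is given as an exact 95% Poisson interval on its reads, which covers counting error only. The fit was tested on simulated data.

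The 4 genes and all lists were chosen with earlier results of these data known. Named genes are the 4; Myc and Ncr1; the 3 members with the smallest p, and all that passed, of each related list and of the mature NK cell list; the nearest tested gene on each side; the 3 most alike profiles among 6255 genes averaging at least 10 RPKM; and the most abundant marker of each list of other cells. Others are said to be chosen after their values were seen. Positions are from GENCODE M21 (GRCm38, the assembly of mm10), found for 12918 genes; promoters are from RefSeq on GRCm38.p6. Alternatives were a pseudocount of 0.1, no filter, at least 5 RPKM, median-of-ratios and upper-quartile scaling, limma-voom on the recovered reads, the authors' deposited values, an adjusted p under 0.01 and leaving out each sample. The threshold of 0.01 was applied to the count of all genes changed and is not among the alternatives counted for single genes. Under it, none of the relatives or mature NK cell genes called by limma would keep the call. Scaling to the NK cell markers was added after seeing the data. Figures were drawn with matplotlib 3.10.9. A few named items are not reported here.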

Additional observations from a re-analysis of the deposited data

How the results depend on the processing

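The falls of St5, Mcam, As3mt and Arl4d kept their direction under every alternative run. Leaving out each library in turn gave -1.97 to -1.37 for St5, -1.81 to -1.12 for Mcam, -0.91 to -0.77 for As3mt and -0.78 to -0.67 for Arl4d. Scaling to the NK cell markers gave -0.56 for As3mt and -0.46 for Arl4d. The count of 150 genes changed was 80 with a pseudocount of 0.1, 24 at an adjusted p under 0.01, 234 in limma-voom, 343 scaled to the NK cell markers, 442 in the authors' deposited table and 34 to 217 without 1 library. The 5 relatives that changed became 2 with that pseudocount, 3 under median-of-ratios and under upper-quartile scaling, 9 scaled to the NK cell markers, 11 in the authors' table and 0 to 4 without 1 library. The 0 neighbours became 1 with no filter (Abcg4), 2 in the authors' table (Abcg4 and Borcs7) and 0 to 1 without 1 control. Abcg4 was at 0 in all controls and entered the main fit only through its MycKO values. Genes called lower numbered 11, and 0 to 18 without 1 library (0 without control 3), 27 in limma-voom and 65 in the authors' table. Scaling to the NK cell markers raises all genes together (median 0.30, against 0.05), which by construction turned the small negative values of Sbf1 (0.063), Mical1 (0.12), Mtr (0.097), Rpl27a (0.044), Rnf26 (0.14), Cnnm2 (0.12) and Dhx8 (0.024), with no call. The sign also turned, with no call, for Rnf26 without MycKO 6 (0.14), for Rnf26 without control 2 (range without 1 library -0.40 to 0.24), for Cnnm2 without control 3 (range -0.40 to 0.22) and for Rdm1 without MycKO 5 (range -0.77 to 0.20). The cause of these last turns was not tested. No paired analysis was possible because the groups share no replicate number. With 2 MycKO libraries, 1 of them at 5451728 reads, small differences were not detectable.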
